A study of Homo sapiens with 8 samples.

Results

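Sites with an accessibility peak in both libraries of LX-2 cells grown on the stiff matrix for 2 days (D2 stiff), and in none of the other 6 libraries, were examined. LX-2 cells were immortalised from human hepatic stellate cells, so all groups share 1 established line, of wild-type genotype by its labels, and no primary tissue was measured. The matrix was a hydrogel with a stiffness near 2 kPa (soft) or near 40 kPa (stiff), culture lasted 2 or 4 days (D2, D4), and each of the 4 combinations had 2 replicate libraries. Merging all peaks of the 8 lists with an overlap of 1 bp or more gave 102366 regions, of which 75501 had peaks from at least 2 libraries. The members were chosen by the presence or absence of a peak in every list, and 461 regions qualified, or 0.611% of the 75501 sites. Since the same peak calls selected them, presence and strength are given as a description and with no test.

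In ATAC-seq, a transposase inserts sequencing adapters into the DNA that it can reach, which is mostly promoters and enhancers free of nucleosomes. Hepatic stellate cells store vitamin A in healthy liver and turn into contractile, matrix-producing myofibroblasts in fibrosis, and a stiff matrix is known to favour that change. AP-1 (dimers of JUN and FOS proteins) and TEAD (the DNA-binding partner of the stiffness-sensitive coactivator YAP) are transcription factors that often occupy enhancers of such cells.

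The sequence around the summits, the positions of highest signal, is shown for 7 members, with 60 bases to each side on the plus strand of GRCh37 (hg19). The first set holds the best ranked members with an AP-1 or TEAD motif in these bases, the next the best ranked with neither motif, and the last line is a member at the promoter of a protein-coding gene. Capitals mark AP-1 (TGACTCA or TGAGTCA) and TEAD (GGAATG) motifs on either strand and, in the promoter, also GC boxes (GGGCGG), the motif of the SP and KLF families. Each member is named by its nearest protein-coding gene. The CARTPT and FAHD2A members are of mostly repeated sequence, as described below.
CARTPT, chr5:71146794-71146914: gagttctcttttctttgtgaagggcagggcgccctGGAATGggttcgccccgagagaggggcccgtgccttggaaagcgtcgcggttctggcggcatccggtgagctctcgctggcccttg
FAHD2A, chr2:96100393-96100513: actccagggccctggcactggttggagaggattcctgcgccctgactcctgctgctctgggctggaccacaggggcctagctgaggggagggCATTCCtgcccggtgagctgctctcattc
FILIP1L, chr3:99596940-99597060: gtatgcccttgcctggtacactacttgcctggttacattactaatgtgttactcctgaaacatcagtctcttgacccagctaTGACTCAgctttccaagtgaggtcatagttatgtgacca
ETV6, chr12:11967422-11967542: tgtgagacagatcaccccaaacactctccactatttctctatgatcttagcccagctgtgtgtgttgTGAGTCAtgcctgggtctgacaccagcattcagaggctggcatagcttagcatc
DUOXA2, chr15:45410416-45410536: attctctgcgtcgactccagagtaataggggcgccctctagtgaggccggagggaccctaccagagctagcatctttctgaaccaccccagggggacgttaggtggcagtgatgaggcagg
ATPSCKMT, chr5:10235601-10235721: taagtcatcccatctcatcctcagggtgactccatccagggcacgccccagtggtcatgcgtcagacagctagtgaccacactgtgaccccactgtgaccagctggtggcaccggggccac
NEURL3, chr2:97173874-97173994: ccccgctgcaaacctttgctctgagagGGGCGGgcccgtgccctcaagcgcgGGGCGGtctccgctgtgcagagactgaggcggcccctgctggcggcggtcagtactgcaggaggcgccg

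The libraries differed in depth. The lists held 59277 and 63684 peaks in D2 stiff replicates 1 and 2, 29789 and 55754 in the D2 soft libraries, 63272 and 56362 in those of D4 soft and 65905 and 72840 in those of D4 stiff. Depth was estimated from the lists as 2.32 and 2.19 fragments per kb of genome in D2 stiff, and D2 soft replicate 1 stood apart at 0.780, against 2.08 to 3.15 in the other libraries. Leaving that library out gave 473 sites in place of 461. The labelled cell type was checked at promoters, taken as the bases within 1 kb of a transcription start. Of 14 stellate cell markers, 8 had a promoter peak in all 8 lists (COL1A1, PDGFRB, ACTA2, VIM, RGS5, LHX2, TAGLN and TIMP1), whereas COL3A1, DES and LRAT had none. No promoter peak was found in any list for the hepatocyte markers ALB, APOA1 and HNF4A, the leukocyte markers PTPRC and CD3E, the endothelial markers PECAM1, CDH5 and STAB2, or the cholangiocyte markers KRT19 and KRT7. Other markers of these cell types did have one: CD68 and CD14 (leukocyte) in all 8 lists, KDR (endothelial) in 7, EPCAM (cholangiocyte) in 6, and TTR and SERPINA1 (hepatocyte) in 2 and 1.

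Most of the D2 stiff alone sites were narrow and weak. Their median width was 327 bp (200 to 959 bp), against 975 bp for the 24246 sites with a peak in all 8 lists, whose width grows with the number of peaks merged. Within the D2 stiff lists, the peaks themselves had median widths of 218 and 258 bp, against 635 and 672 bp. The narrowest lay 26580 bp from the start of LINC02010 and the widest in PRR16. Fold enrichment divides the fragments at the summit by the library's own local background, with 1 added to each. It had a median of 5.06 in replicate 1 (2.92 to 20.9) and 5.59 in replicate 2 (2.66 to 19.8). In the same libraries, sites of all 8 lists had medians of 9.65 and 10.3. The local background had a median of 0.552 and 0.649 fragments at the members and 1.29 and 1.87 at sites of all 8 lists. The added 1 lowers the ratio more where the background is low, so these medians overstate the contrast in plain ratios. The median pileup at the summit was 8 fragments in replicate 1 and 10 in replicate 2, with ranges of 4 to 65 and 4 to 50, whereas sites of all 8 lists had 22 and 29. Within the lists ranked by p-value, the members stood at a median percentile of 17.6 and 21.4, where 100 is the strongest peak. The sets selected in the same way for D4 ranked low in their own libraries too, at 13.7 and 17.4 for D4 stiff alone and 14.9 and 13.9 for D4 soft alone. Both peaks fell in the lower 50% of their lists for 394 members (85.5%), both were in the upper 50% for 22, and both in the top 10% for 1.

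The 2 replicates gave similar but not identical pictures of each member. Summits lay within 50 bp of each other in 252 members (54.7%) and within 100 bp in 371 (80.5%), with a median gap of 42 bp. Across the 461 members, log2 fold enrichment in the 2 libraries had a Pearson r of 0.562 and a Spearman coefficient of 0.503. This is a description across sites that share both libraries, and the Spearman coefficient over sites of all 8 lists was 0.738. Fold enrichment, which is relative to each library's own background, reached 5 in both replicates at 187 members.

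**Figure D1:**
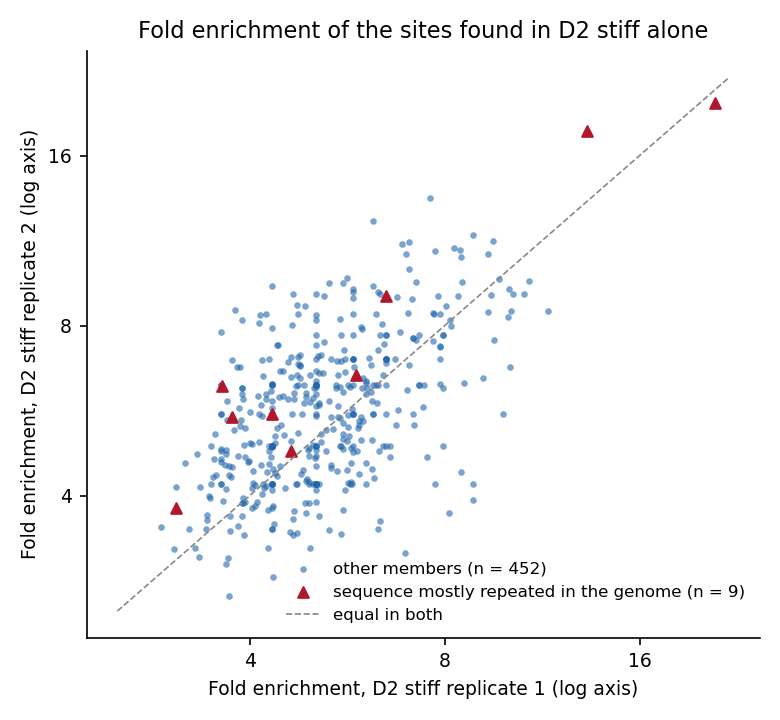
Fold enrichment (ratio, log axes) of the 461 sites found in D2 stiff alone in replicate 1 and replicate 2, 1 point per site, with 9 sites whose sequence is mostly repeated in the genome as triangles. The dashed line marks equal values as a guide, since levels are not comparable between lists. Most points lie near the medians of 5.06 and 5.59, and the 2 members at the upper right, at 20.9 and 19.8 and at 13.3 and 17.7, are both of repeated sequence.

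The strongest members were of repeated sequence. The best ranked member (chr5:71146741-71146941) was narrow and intergenic, 131739 bp from the start of CARTPT, which encodes a neuropeptide. It had 65 and 50 fragments at the summit and a fold enrichment of 20.9 and 19.8. The second (chr2:96100394-96100598) lay 11 bp from the start of an annotated processed pseudogene (ENSG00000233275) and 32025 bp from FAHD2A, with a fold enrichment of 13.3 and 17.7. To describe mapping ambiguity, a measure chosen after these values were seen, the 32-base words within 100 bp of each summit were counted in GRCh37. In the first member 67.6% of the words, and in the second 92.9%, occurred at more than 1 place. How reads with several possible places were treated is not given in the sources used here, and the part of such reads in these peaks was not tested. In 9 members (1.95%) at least 50% of the words were repeated, against 1.299% of sites in all 8 lists, 2.96% of the other sites in exactly 2 lists and 2.77% of the sites of D4 stiff alone. The others of the 9 were nearest to LRRC37B, PTBP2, MMP24, CLIC4, NUTM2D, FAM210A and PRELID2. No repeated word was found in 392 members (85.0%), and 452 members remained without the 9.

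The next 8 members by rank had no repeated words, except 1 with 15.9%. DUOXA2, which encodes a maturation factor of the dual oxidase DUOX2, had the third (chr15:45410377-45410585), in an exon that overlaps DUOXA1, with a fold enrichment of 10.6 and 9.11 and 24 and 25 fragments. The fourth (chr5:10235535-10235755) lay in an intron of ATPSCKMT, a lysine methyltransferase of the ATP synthase c subunit, with 20 and 33 fragments. FILIP1L had the fifth (chr3:99596566-99597132), 1802 bp upstream of a start, at 9.44 and 9.07. The next members were 8848 bp upstream of CALML6 (10.1 and 9.30), in an intron of ETV6, an ETS-family repressor (8.45 and 10.9), in an intron of SLC12A5, the neuronal potassium-chloride cotransporter KCC2 (9.35 and 10.7), in an intron of NGEF, a guanine nucleotide exchange factor (10.8 and 9.61), and 44919 bp from the start of KBTBD2 (9.52 and 11.3). AP-1 motifs were within 100 bp of the summit in the FILIP1L, ETV6, SLC12A5 and NGEF members, as printed above for the first 2 of these.

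Next, the selection was read against the sites around its edge. Of the sites with a peak in both D2 stiff lists, 461 had a peak in none of the other 6 lists, 992 in 1, 1840 in 2, 3083 in 3, 4803 in 4, 12642 in 5 and 24246 in 6. Of the 992 sites that missed the selection by 1 list, 653 had that peak in a D4 stiff list (252 in replicate 1 and 401 in replicate 2). It was in a D4 soft list at 199 and in a D2 soft list at 140, with 12 in the shallow D2 soft replicate 1. The D4 stiff lists were also the longest (65905 and 72840 peaks) and the deepest by estimate, and these counts were not adjusted for that. Median fold enrichment in D2 stiff replicates 1 and 2 was 5.45 and 6.06 for these 992 sites, and it was higher at each further list, up to 9.65 and 10.3. Without D4 stiff replicate 1 or replicate 2, the selection held 721 or 862 sites. Another 2606 and 3182 regions had a peak in replicate 1 or replicate 2 of D2 stiff and in no other list. Among the weakest members by q-value was one near PDE2A, which encodes a cyclic nucleotide phosphodiesterase (chr11:72387814-72388211, q = 0.0379 in replicate 1). Just outside, a site near COL13A1 (chr10:71674281-71674781) was kept out by a peak in D4 soft replicate 2 with q = 0.0437. In 18 members (3.905%) at least 1 of the replicates had a q-value above 0.01.

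**Figure D2:**
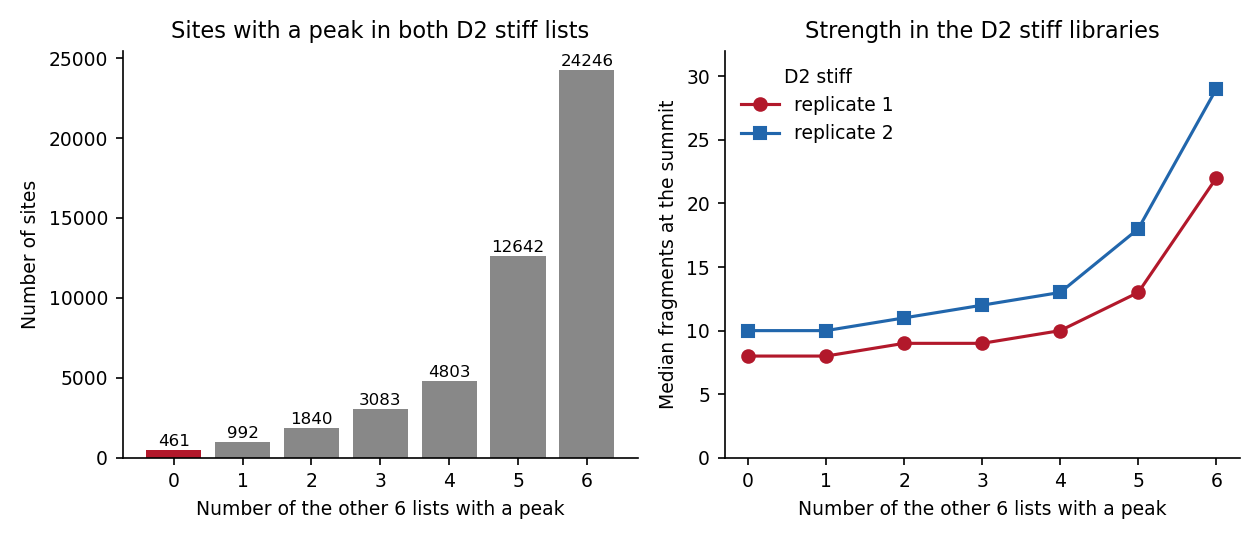
Left, the number of sites with a peak in both D2 stiff lists by how many of the other 6 lists had a peak, with the 461 members in red; right, the median number of fragments at the summit of the same sites in D2 stiff replicate 1 (circles) and replicate 2 (squares). The bars rise from 461 to 24246, and the medians are 8 and 10 fragments at both 0 and 1 list and 22 and 29 at 6 lists.

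A missing peak does not show that a site was closed. A peak needed as few as 3 fragments in D2 soft replicate 1, 5 in D4 stiff replicate 1 and 4 in the other libraries where the background was lowest, and the fragments that missed the threshold of a list were not analysed here. A peak of another list lay at a median distance of 4785 bp from a member (0 to 222526 bp). It lay within 500 bp at 24 members (5.21%), within 1 kb at 54 (11.7%) and within 10 kb at 334 (72.5%). With every list reduced to its strongest 29789 peaks, the length of the shortest list, 240 sites were found in D2 stiff alone.

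The D2 stiff alone sites lay mainly in introns and away from promoters. Their centre was within 1 kb of a transcription start in 38 (8.24%, 95% Wilson interval 6.06 to 11.1%, counting error only), in an exon in 18 (3.905%), in an intron in 273 (59.2%) and between genes in 132 (28.6%). Over all 75501 sites the promoter share was 22.4% and the intron share 47.3%, and over sites in all 8 lists they were 37.9% and 38.3%. Sites found in few lists had low promoter shares in general: 9.83% of the other sites in exactly 2 lists, 12.1% of the 1373 sites of D4 stiff alone, 7.12% of the 393 of D4 soft alone and 10.7% of the 642 sites in all stiff and no soft lists. Within 2 kb of a start there were 14.8% of the members. The median distance from the centre to a start was 12460 bp (11 to 240647 bp), against 10027 bp over all sites and 5252.5 bp over those in all 8 lists. From the nearest start of a protein-coding gene it was 34752 bp, with 352 members (76.4%) more than 10 kb and 133 (28.9%) more than 100 kb away.

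**Figure D3:**
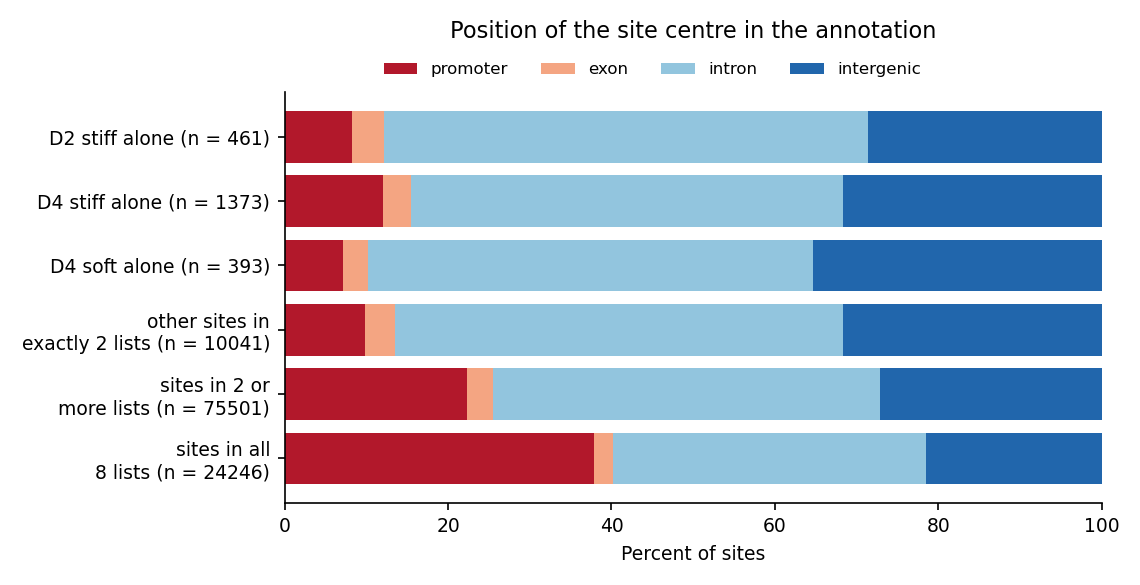
Percent of sites whose centre lay at a promoter (within 1 kb of a start), in an exon, in an intron or between genes, for the sites of D2 stiff alone and 5 other sets, with the number of sites beside each name. Promoters take 8.24% of the D2 stiff alone sites, as a short red bar like those of the other sets found in 2 lists, and 37.9% of the sites in all 8 lists.

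Promoters of 19 members belonged to protein-coding genes, and the other 19 were mostly promoters of long non-coding RNAs (12). Among the best ranked was that at NEURL3, a ubiquitin ligase (102 bp upstream, fold enrichment 5.51 and 6.23). The promoter of C3, the central complement component, had a fold enrichment of 3.80 and 8.51, with 5 and 12 fragments. Members were also at promoters of genes for signalling and actin proteins: SOCS6, a suppressor of cytokine signalling (5.31 and 3.48), SSH1, a phosphatase that activates the actin-severing protein cofilin (3.43 and 3.70), ARHGEF7, an exchange factor for RAC and CDC42 (4.26 and 4.41), and MAGI1, a scaffold of cell junctions (3.71 and 3.102). Transcription factors with such a member were KLF11, a TGF-beta-inducible zinc finger protein (5.86 and 4.796), GLIS3 (3.92 and 3.41) and FOXP1 (4.73 and 3.43). Matrix genes were THBS3, a thrombospondin (4.27 and 3.77), and ADAMTS4, an aggrecanase (2.92 and 3.53). CHAT, MFNG, SH3TC1, KRTAP5-5 and ABCC9 completed the named promoters, with fold enrichment between 3.36 and 6.22. Other lists had peaks close to some of them, 833 bp from the member at SSH1, 412 bp at KLF11, 323 bp at FOXP1 and 231 bp at SOCS6.

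The nearest protein-coding genes were many and rarely repeated. The 461 members were nearest to 442 genes, of which 424 had 1 member, 17 had 2 and 1, the protocadherin PCDH7, had 3. The members of PCDH7 were 1341797, 2156681 and 2687347 bp from its start, and the gene was nearest to 75 of all sites. Genes with 2 members included COL6A3, a chain of collagen VI (of 14 sites), TFAP2A, a transcription factor (of 38), TENM3, a teneurin (of 41), AFAP1, an actin filament-associated protein (of 31), and FILIP1L (of 21). In 9 places 2 members lay within 100 kb of each other, and no chain of 3 was found. Of the 442 genes, 203 (45.9%) had a promoter peak in all 8 lists and 99 (22.4%) in none, against 49.5% and 21.6% of the genes nearest to any site.

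Gene functions were then read from 20 lists. A member's nearest gene was on at least 1 list in 129 members (27.98%), against 25.5% of all sites. The member at ARHGEF6, which activates RAC1 and CDC42, had a fold enrichment of 6.35 and 9.09 and both an AP-1 and a TEAD motif. In SVIL, which encodes the actin- and myosin-binding protein supervillin, the member (5.06 and 6.29) had an AP-1 motif. Integrins and focal adhesion genes had 1 (0.217%, against 0.669%), at ITGB3 (4.16 and 4.54).

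Extracellular matrix genes had 12 members. Core matrix genes had 7 (1.52%, against 1.23%), nearest to COL5A2 (5.22 and 9.03), NID2 (3.88 and 5.46), COL6A3 (5.88 and 5.28, and 3.91 and 3.89), COL8A1 (6.19 and 4.46), SDC2 and THBS3. Both COL6A3 members lay between genes, 101612 and 132049 bp from its start. COL5A2 encodes a chain of the fibril-forming collagen V, and its member was 56429 bp upstream. The member nearest to COL8A1, a network-forming collagen (chr3:99254191-99254625), was 102911 bp upstream and had an AP-1 motif. Matrix remodelling genes had 5 (1.08%, against 0.715%), nearest to ADAMTS15, MMP24, PLOD2, ADAM10 and ADAMTS4. PLOD2, which hydroxylates collagen telopeptide lysines, had a member 7489 bp into the gene (4.13 and 5.59). The MMP24 member was among the 9 of repeated sequence.

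Genes of the TGF-beta pathway, which drives stellate cell activation, and of the BMP pathway together had 6 members (1.302%, against 0.837%). Among the intracellular SMAD proteins, SMAD4, the common partner, had a fold enrichment of 8.16 and 8.19, SMAD3, which transmits TGF-beta signals, 5.19 and 6.59, and SMAD6, an inhibitor, 5.06 and 8.19. The SMAD3 member (chr15:67389333-67389637) was 1435 bp upstream of an annotated start, within the gene, and had an AP-1 motif. LTBP1 and LTBP2, which encode latent TGF-beta-binding family proteins of the matrix, had 5.95 and 5.52, and 6.05 and 6.06. The LTBP2 member lay within AREL1, 46829 bp upstream of the LTBP2 start. The ligand GDF6 had 5.67 and 5.55. From the Hippo and YAP list there were 3 (0.651%, against 0.511%), nearest to WWC1, ANKRD1 and VGLL3. The member nearest to WWC1 (KIBRA, an upstream activator of the pathway) had 7.87 and 7.37. It lay within TENM2, 177028 bp from the WWC1 start. ANKRD1, a well-known target of YAP, had 4.73 and 8.70, 85471 bp from its start, and VGLL3, a TEAD cofactor, had 5.34 and 6.98. Only the VGLL3 member of these 3 had a TEAD motif. WNT genes had 1 (0.217%, against 0.515%), at WNT11, and 0 of 461 members were nearest to a gene of the AP-1 factors, which allows a share of up to 0.651%, against 0.230% of all sites.

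Signalling enzymes and receptors made up another group. Protein phosphatase genes had 9 members (1.95%, against 1.11%), including PPM1H (9.70 and 9.68), PPP2R2A (7.13 and 8.93), PTPRU (5.65 and 9.70) and PPP3CA, the catalytic subunit of calcineurin (5.94 and 7.94). The list for protein kinases had 8 (1.74%, against 2.76%), including MAP3K13 (8.38 and 9.05), NEK11 (6.08 and 6.20) and PRKD1 (6.19 and 5.02), and also PIK3R3, a regulatory subunit of a lipid kinase. Receptors coupled to G proteins had 7 (1.52%, against 1.497%), among them S1PR1 for sphingosine 1-phosphate (8.57 and 6.32), AGTR1 for angiotensin II (6.35 and 7.69) and LPAR3 for lysophosphatidic acid (4.34 and 7.91). Some of these sites were far from the named gene and outside it. The distance to its start was 105919 bp for PPP2R2A, 607896 bp for PTPRU, 283302 bp for PRKD1 and 126938 bp for S1PR1. The list for phosphodiesterase and cyclic nucleotide genes had 6 (1.302%, against 0.789%), PDE4D among them (5.69 and 5.11). It also took in PRKAB1, a subunit gene of AMP-activated protein kinase, whose member was counted among the protein kinases as well. Growth factor genes had 4 (0.868%, against 0.834%), nearest to FGF14, NRG1, HGF and EFNB2. The HGF member, 335591 bp from the start of this stellate cell-derived mitogen of hepatocytes, had 5.97 and 7.91. Cytokine and receptor genes had 3 (0.651%, against 1.06%), at IL1R1, IL15 and IL6ST.

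Lists of neural adhesion, ion channel, transport and transcription factor genes were counted in the same way. Cadherins and neural adhesion genes had 14 members (3.04%, against 2.65%), including ROBO1 (7.72 and 8.39) and SEMA5B (4.78 and 6.81). Ion channel genes had 12 (2.60%, against 1.80%), including KCNT1 (10.1 and 8.48) and KCNMA1 (6.31 and 7.23). Solute carrier and transporter genes had 13 (2.82%, against 2.11%), including SLC20A1 (6.89 and 11.2). Zinc finger genes had 10 (2.17%, against 2.52%), homeobox and forkhead factors 10 (2.17%, against 2.23%) and olfactory receptors 2 (0.434%, against 0.252%). The list counts were small, from 0 to 14 of 461, no list was tested, and the nearest gene need not be the gene that a site acts on.

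The bases within 100 bp of each summit were searched for motifs, on either strand. AP-1 was found in 145 members (31.5%, 95% Wilson interval 27.4 to 35.8%), against 30.2% of all sites, 28.3% of those in all 8 lists, 27.8% of the other sites in exactly 2 lists and 28.8% of D4 stiff alone. It was in 32.3% of the 31 sites of D2 soft alone, 25.7% of D4 soft alone and 27.7% of the sites in all stiff and no soft lists. TEAD was found in 114 (24.7%, interval 21.0 to 28.9%), against 19.1% of all sites, 18.1% of those in all 8 lists, 18.1% of the other sites in exactly 2 lists and 18.9% of D4 stiff alone. It was in 9.68% of D2 soft alone, 14.2% of D4 soft alone and 27.1% of the sites in all stiff and no soft lists. Either motif was found in 235 members (51.0%) and both in 24 (5.21%), and 226 members had neither. The other sets held either motif in 36.9 to 49.2%, and all sites in 43.7%. These shares are a description, since sites are not replicates, and intervals cover counting error only.

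**Figure D4:**
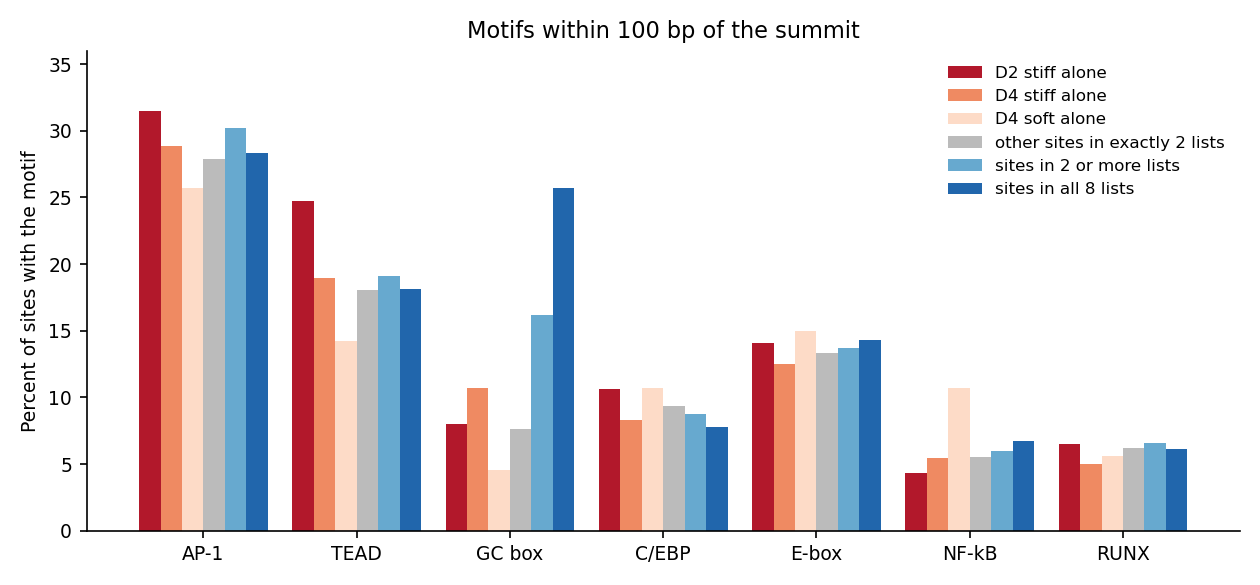
Percent of sites with each of 7 motifs within 100 bp of the summit, for the sites of D2 stiff alone, D4 stiff alone, D4 soft alone, other sites in exactly 2 lists, all sites and sites in all 8 lists. The D2 stiff alone bars for AP-1 (31.5%) and TEAD (24.7%) are the highest of these 6 sets, but D2 soft alone (AP-1, 32.3%) and all stiff and no soft lists (TEAD, 27.1%), which are not drawn, were higher, while its GC box bar (8.03%) is far below that of the sites in all 8 lists (25.7%).

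Base composition differed along with the motifs. Median GC content within 100 bp of the summit was 45.3% in the members (quartiles 39.8 and 51.7%), against 48.3% over all sites, 52.2% in all 8 lists, 47.3% in D4 stiff alone and 45.3% in D4 soft alone. The GC box was found in 37 members (8.03%), against 16.2% of all sites and 7.65% of the other sites in exactly 2 lists. Among sequences of 40 to 50% GC, AP-1 was in 40.3% of the 196 members and 37.9% of all such sites, and TEAD in 26.5% and 23.5%. Below 40% GC the order of AP-1 was the opposite, with 22.8% of the members and 35.3% of all such sites, while TEAD was in 30.1% and 21.97%. Members with a motif had it at a median of 36 bp (AP-1) and 35 bp (TEAD) from the summit, against 34 and 41 bp over all sites.

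Within the members, AP-1 was more frequent at the stronger sites. It was found in 35.7% of the 154 best ranked members, 35.1% of the next 154 and 23.5% of the last 153, and TEAD in 28.6%, 24.03% and 21.6%. The promoter share was 5.19%, 7.79% and 11.8% in the same order. By position, AP-1 was in 33.3% of intergenic, 31.9% of intronic and 23.7% of promoter members, and TEAD in 28.03%, 23.1% and 26.3%. At the D2 stiff summits of all sites with a peak in both D2 stiff lists, the TEAD share was 24.7% with no other list, between 22.2 and 25.5% with 1 to 4 others, 19.9% with 5 and 17.9% with 6. The AP-1 share varied without such an order, between 26.3 and 33.02%.

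Of the other motifs, C/EBP (TTGCNNAA) was in 10.6% of members (8.74% of all sites), an E-box (CAGCTG) in 14.1% (13.7%), RUNX (TGTGGTT) in 6.51% (6.61%) and FOX (TGTTTAC) in 3.25% (3.02%). ETS (CCGGAAG), common at promoters, was in 0.868% (3.54%), and CRE (TGACGTCA) in 0.217% (0.608%). NF-kB was in 4.34% (5.99%), CTCF in 2.60% (2.11%) and the SRF CArG box in 0.868% (1.15%). In D4 soft alone, 10.7% had the NF-kB motif. Letters of these motifs can overlap each other, and a match does not show that a factor was bound.

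Members were spread over the chromosomes. Their share of a chromosome's sites ranged from 0.112% (1 member) on 21 to 0.914% (17 members) on 18, and none of the 87 sites of Y was a member. Chromosome 2 held the most, 45.

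Finally, the surroundings of the members, which the selection did not use, were compared between libraries. The share of a library's peaks that lay within 50 kb of a member, without overlapping one, was 2.60% and 2.66% in D2 stiff, 2.64% and 2.63% in the D2 soft libraries, 2.56% and 2.59% in those of D4 soft and 2.65% and 2.60% in those of D4 stiff. The groups overlapped, although D2 stiff replicate 2 had the highest value of the 8. The mean was 2.63% ± 0.0416 (SD, n = 2) in D2 stiff and 2.61% ± 0.0333 (SD, n = 6) in the other libraries, a difference of 0.0144 percentage points that was smaller than the SD of either set (p = 0.607 by an exact two-sided permutation test, Benjamini-Hochberg adjusted over 2 measures p = 0.607). With 28 arrangements, the smallest p possible was 0.0357. The D2 stiff mean minus that of D2 soft was -0.0109 points, and minus that of D4 stiff 0.00282. The divisor was the whole list, and by the selection only the D2 stiff lists hold peaks at the 461 members. This lowers the D2 stiff shares, here and in the alternatives of the closing section, by an amount that was not computed. At least 461 peaks of each D2 stiff list, of 59277 and 63684, were in the divisor in this way. Shares without the member peaks were not computed, so the sign and size of differences this small rest on that choice. For the same reason the test cannot decide whether the shares differ.

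The strength of neighbouring shared sites did not separate D2 stiff from the other libraries. At the 656 sites with a peak in all 8 lists within 50 kb of a member, the mean percentile of fold enrichment among the 24246 shared sites was 49.5 and 48.6 in D2 stiff, 50.5 and 48.4 in the D2 soft libraries, 49.0 and 47.5 in those of D4 soft and 46.8 and 47.4 in those of D4 stiff. The D2 stiff values lay within the range of the others, with means of 49.0 ± 0.630 (SD, n = 2) and 48.3 ± 1.33 (SD, n = 6) and a difference of 0.783 (exact two-sided permutation p = 0.393, adjusted p = 0.607). The D2 stiff mean minus that of D2 soft was -0.387, and minus that of D4 stiff 1.95. With lists of equal length, which gave other members, the difference was 1.81 (exact permutation p = 0.0357, the smallest possible). The study's methods call its sequencing replicates biological, but neither they nor the labels say that they came from separate cultures, so the p-values measure only the spread between these libraries.

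**Figure D5:**
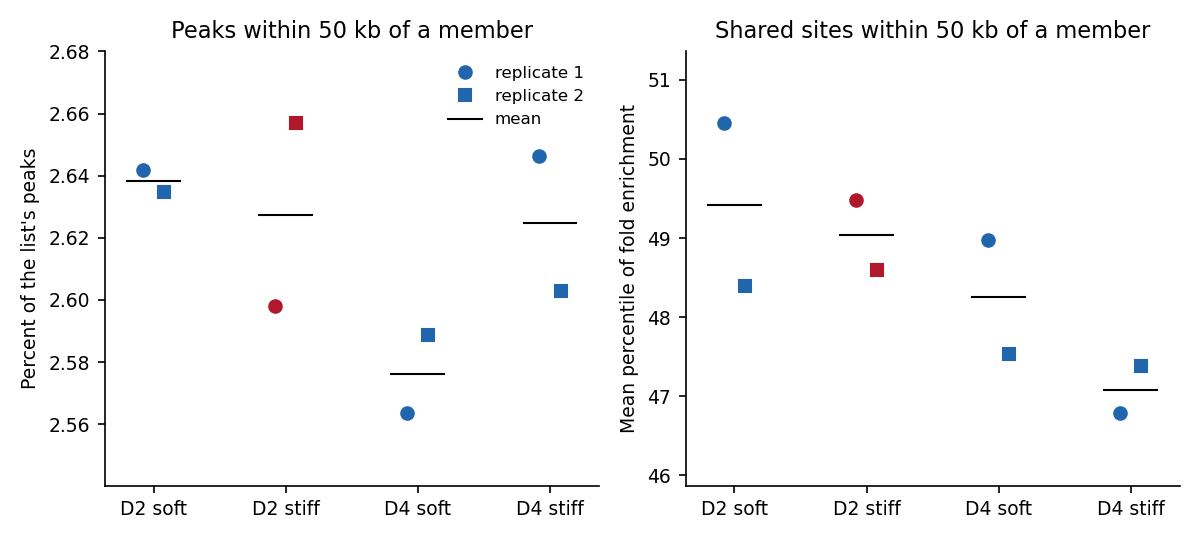
Left, the percent of each list's peaks within 50 kb of a member, where the total includes peaks at members; right, the mean percentile of fold enrichment of the 656 shared sites within 50 kb of a member. Each point is 1 library (circle, replicate 1; square, replicate 2; D2 stiff in red), lines are group means, and the axes do not start at 0. On the left the D2 stiff points are at 2.60% and 2.66%, the second just above the highest of the others (2.65%), and on the right, at 49.5 and 48.6, they lie within the range of the others.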

How the data were processed

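ATAC-seq of LX-2 cells gave 8 peak lists, 2 replicates in each of 4 groups. The submitters' notes name Trim Galore, Bowtie2 (version 2.4.1), Picard, bedtools (version 2.24.0) and MACS2, and the study's methods the build hg19 and a q-value threshold of 0.05. Caller options and the treatment of transposase offsets are not given in the sources used here. Peaks were called per library, without pooling. Fold enrichment, as the authors deposited it, is the ratio of summit pileup to the library's local background. The deposited −log10 p and −log10 q values refer to that background, and the score the authors deposited was not used further. The summit offset is the other deposited column used. Values are comparable within a list, not between lists.

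Members and gene lists were chosen with earlier results of these data known. Whole-number pileups were solved from fold enrichment and p under the caller's Poisson model (100% of 466883 peaks, tolerance 0.0005 on −log10 p). Depth is the lowest background over the shortest peak, a comparison of libraries that rests on that model. Sequence came from GRCh37 and annotation from GENCODE release 44 on that build (110162 starts). Named members were the 10 best by mean percentile, genes with 3 members, up to 15 coding promoters, up to 4 per list and the extremes. Others are named where a count was small or a group was listed in full, and these were chosen after their values were seen. Peak names in at least 4 lists carry another replicate number than the labels, whose numbers were kept. Code was tested on simulated data and run in Python 3.11.15 with numpy 2.4.6 and scipy 1.17.1. Some members and 1 gene list are not reported here. Alternatives are given in the closing section.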

Additional observations from a re-analysis of the deposited data

How the results depend on the processing

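The number of sites in D2 stiff alone was 437 to 465 when peaks had to overlap by 50%, when peaks up to 100 bp apart were joined, when no other peak was allowed within 500 bp and at a q-value up to 0.01. It was 240 with lists of equal length, where the median pileup was 17 in place of 9, the median GC content 46.5% and the median distance to a start 12881.5 bp. Leaving out 1 library gave 473 to 3659 sites. It was 3659 without D2 stiff replicate 1, 3089 without replicate 2, 721 without D4 stiff replicate 1 and 862 without D4 stiff replicate 2, so the count rests on each of these. Over the same libraries left out, the promoter share was 7.54 to 9.29%, the AP-1 share 21.6 to 31.7%, the TEAD share 18.8 to 26.3%, the median GC content 45.3 to 46.3%, the median distance 12355 to 13171.5 bp and the median pileup 6 to 9 fragments. The lowest AP-1 and TEAD shares came without D2 stiff replicate 1, when a peak in 1 list was enough. A promoter limit of 2 kb gave 14.8%. With 50 bp to each side of the summit AP-1 was at 20.2% and TEAD at 16.9%, and with 150 bp TEAD was at 31.2%, as fewer or more bases were searched. The median GC content was 45.8% with a 50% overlap. The median distance was 13482 bp with a 50% overlap, 12667 bp with joined peaks, 13034 bp without peaks within 500 bp, 12534.5 bp at q up to 0.01, 12700.5 bp without members of repeated sequence (an alternative chosen after seeing the data) and 34752 bp from coding starts. The difference in peak share in the flanks was −0.00853 points at q up to 0.01 (exact permutation p = 0.821), and it ranged from −0.0150 (without D2 stiff replicate 2) to 0.0439 with 1 library left out. The difference in rank was −0.471 with flanks of 20 kb (exact permutation p = 0.821) and 1.81 with lists of equal length (exact permutation p = 0.0357), and 0.337 to 1.23 with 1 library left out. The cause of these changes was not tested. With the replicate number as a block, the differences were 0.0144 (exact permutation p = 0.625) and 0.783 (exact permutation p = 0.4375), where 16 arrangements allow no p below 0.0625. Deviations of libraries with the same label number had correlations of −0.0439 to 0.0932, so these numbers showed no pairing. The numbers inside the peak names were not used. With no p below 0.0625 possible, the block could not decide whether pairing matters.

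Reads were not analysed here, and signal below the threshold of a list was not seen. The members rested on a median of 8 and 10 fragments, and the other lists came from libraries of other depths.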
